A study of Oryza sativa with 20 samples.

Results

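Shoots of rice seedlings were chilled for 12 hours at 10°C and compared with control shoots kept at 29°C for the same time. All seedlings belonged to the japonica cultivar CT6748-8-CA-17, which tolerates chilling, and were at the S3 stage, and both groups were under continuous light, so that the growth temperature was the one stated difference between them. The data are the 4 columns titled with 12 hours, chosen by their labels, of 20 columns in the whole series. They come from 2 independent biological replicates of 10 in the series, and each slide carried every feature on 2 sets of spots, which gives 4 spots per feature. RNA from the chilled shoots was labeled with Cy3 and RNA from the control shoots with Cy5 on the same slide, with no dye swap, and a dye bias of a feature would therefore stay in all of its ratios. A value is the log2 ratio of chilled over control shoots, and a positive value means more transcript in the chilled shoots. One genotype was examined, and since the values are ratios and not levels, the tissue label could not be checked by the abundance of marker transcripts. In whole shoots, a change in the share of a cell type and a change of transcript within its cells cannot be told apart. The study describes the features as cDNA fragments from libraries of chilled seedlings and of drought-stressed plants. The array is therefore not a sample of all rice genes, and a cDNA can bind transcripts of closely related genes.

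Rice is a plant of warm climates, and temperatures well above freezing already injure its seedlings. Low temperature slows membrane and enzyme processes, raises cytosolic calcium and reactive oxygen species, and changes the transcript levels of transcription factors, protective proteins and enzymes of carbon metabolism. Hormone pathways with repressor proteins, such as the Aux/IAA proteins of auxin and the JAZ proteins of jasmonate, also respond to temperature, and the circadian clock of plants is reset and slowed by cold.

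Of 6080 features in the table, 6027 had a value in both replicates after 12 hours. Their mean log2 ratio had a median of 0.11, and 59.5% of them were above 0 (51.9% with the median of each column set to 0). By the rule of a mean change of at least 1.8-fold, 571 features (9.47%) were higher in the chilled shoots and 136 (2.26%) were lower. With the medians set to 0 these counts were 454 (7.53%) and 170 (2.82%). One sign in all 4 spots was seen for 478 of the higher and 68 of the lower features, which is 8.15% and 1.16% of the 5865 features with 4 spots. The rule was met in each replicate by 217 features in the upward direction (3.6%) and by 72 in the downward direction (1.19%). The table holds more features than the unique cDNAs that the study states for its array. Rows of control or empty spots, if any, were not identified and would count in these numbers and shares.

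The 2 replicates differed more than the spots within a slide. The spots of replicate 1 correlated at r = 0.65 across features and those of replicate 2 at r = 0.59, whereas the replicate means correlated at r = 0.37 (Spearman's rho 0.48). These are descriptions across features, which share slides and are not independent. The median absolute difference was 0.23 and 0.20 (log2) between the spots of a slide and 0.34 between replicates, the same as at 6 hours and below the 0.43 to 0.70 at the other times. Replicate 1 alone had 817 features at or above 1.8-fold, and replicate 2 alone had 556. The medians of the 4 columns lay between 0.06 and 0.14, with 81 to 100 values missing per column and 31 values beyond 5 in size among all spots. Intensities were not used here, and precision is bounded by having 2 slides at this time.

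**Figure D1:**
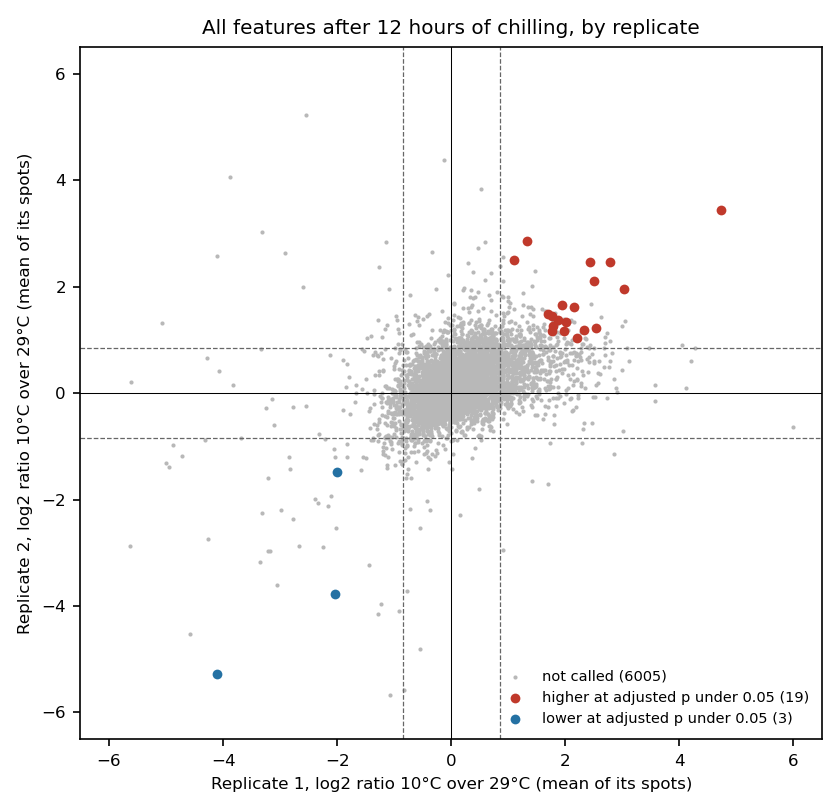
Each point is a feature, with its log2 ratio of 10°C over 29°C in replicate 1 on the x axis and in replicate 2 on the y axis, each the mean of its spots on a log2 scale, and dashed lines mark 1.8-fold. The 19 features called higher and the 3 called lower lie in the upper right and lower left corners beyond 1.8-fold in both replicates, while many uncalled features are far from 0 in replicate 1 alone; 4 features fall outside the axes.

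For a test, the 12-hour mean was set against 0 in a limma model that shares the spread over all 10 biological samples, with Benjamini-Hochberg adjustment over 5926 features. At an adjusted p under 0.05, 19 features rose (0.321% of those tested) and 3 fell (0.0506%), against 774 and 159 at an unadjusted p under 0.05. All 22 were beyond 1.8-fold in each replicate with one sign, and 5 of them had spots that lay more than 2 log2 units apart. Among the 22, 4 carry a gene name, 13 have a locus identifier alone and 5 are without a gene in the annotation. The number of calls moved with the settings, with 5 higher and 3 lower when the median of each column was set to 0, which shifts the 12-hour means as well as the residuals. Replicate 2 at 2 hours ran opposite to replicate 1 as deposited and entered the fit with its sign turned, and with the sign as deposited 0 features were called in either direction at 12 hours. The values by spot are therefore given first.

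The clock gene CCA1 stood highest among the named features. CCA1, also called LHY, encodes a MYB-type transcription factor of the morning part of the circadian clock, and it is represented by 2 features. In the first, the spots of replicate 1 gave log2 ratios of 3.13 and 2.43 and those of replicate 2 gave 2.37 and 2.54. In the second, they gave 2.17 and 1.85 in replicate 1 and 1.33 and 1.35 in replicate 2. All 8 spots were thus above 1.8-fold, and the replicates overlapped in the first feature and not in the second. CCA1 rose 6.14-fold in the first feature (mean 2.62 ± 0.23, SD, n = 2, standard error of the fit 0.48) and 3.19-fold in the second (1.68 ± 0.48, SD, n = 2, standard error 0.30), with limma adjusted p = 0.0419 for each. With the median of each column set to 0, the adjusted p values were 0.0705 and 0.0625.

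Other genes of the clock and of light perception were closer to 0. The list held 10 features of 8 genes with a median of 0.41, against 0.11 over all features. Of the 10, 9 were above 0 (against 59.5% of all features), 3 were at or above 1.8-fold (against 9.47%), and 2 passed the test (against 0.321%). Both features that passed are those of CCA1. This list and the other gene lists were drawn up with earlier results of these data known. Their shares, medians and ranks beside all features are therefore descriptions and no independent evidence. Ehd3, a PHD-finger protein that promotes flowering, gave 1.47 and 1.97 in replicate 1 and 0.18 and 1.42 in replicate 2 in one feature (mean 1.26, limma adjusted p = 0.128) and averaged 0.53 in the other. The clock pseudo-response regulator OsPRR95 averaged 0.75 ± 0.41 (SD, n = 2), higher in replicate 2. OsPRR73, another pseudo-response regulator, averaged -0.09, and the photoreceptor genes PHOT2, PHYA and PhyB averaged 0.30, 0.27 and 0.22. The high values in this list were thus those of CCA1 and of one feature of Ehd3.

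NPR4, a member of the NPR1 family of ankyrin-repeat co-regulators of salicylic acid responses, varied little between spots. Its log2 ratios were 2.00 and 1.88 in replicate 1 and 1.77 and 1.55 in replicate 2. It rose 3.48-fold (mean 1.8 ± 0.20, SD, n = 2, limma adjusted p = 0.0384), and its adjusted p was 0.0455 with the median of each column set to 0. It is among the genes that the study listed for their increase on these arrays. The related gene NPR2 averaged 0.98 ± 0.09 (SD, n = 2), with all 4 spots between 0.83 and 1.21, and did not pass the test (limma adjusted p = 0.172). LOL3, a zinc-finger protein of the family of the cell death regulator LSD1, averaged 1.15 and had 1 spot at 1.81 and the other 3 between 0.89 and 0.98. CERK1, the receptor kinase for chitin, lay on the other side, with -1.40 and -1.01 in replicate 1 and -0.92 and -1.12 in replicate 2 (2.16-fold lower, limma adjusted p = 0.0993). HIRL2 had 2.38 and 1.67 in replicate 1 and -0.27 and 0.23 in replicate 2, so that its mean of 1.0 came from one replicate. Of 21 features for defense and cell death, 5 were at or above 1.8-fold (23.8%, against 9.47% of all features). In this list 1 was at or past 1.8-fold lower (against 2.26% of all features), and the median was 0.12.

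In auxin signaling, IAA19, a repressor of the Aux/IAA family, was the one feature that passed the test. It gave 1.65 and 1.87 in replicate 1 and 1.37 and 1.52 in replicate 2 and rose 3.03-fold (mean 1.60 ± 0.22, SD, n = 2, limma adjusted p = 0.0419), and its adjusted p was 0.0765 with the median of each column set to 0. IAA30, of the same family, gave 1.93 and 2.12 in replicate 1 and 0.94 and 0.91 in replicate 2. IAA3, listed by the study as IAA8, gave 2.01 and 2.16 in replicate 1 and 0.82 and 0.68 in replicate 2. In these last 2 genes the replicates did not overlap, and neither passed the test (limma adjusted p = 0.132 and 0.235). The auxin response factor ARF23, a DNA-binding protein that such repressors hold back, averaged 1.38 ± 0.48 (SD, n = 2, limma adjusted p = 0.0728). IAA17 and IAA9 averaged 0.89 and 0.83, and IAA21 was lower in all 4 spots, between -0.48 and -0.84. Of 16 auxin features, 12 were above 0 (75.0%, against 59.5% of all features), 5 were at or above 1.8-fold (31.2%, against 9.47%) and 1 passed the test (against 0.321% of all features), with a median of 0.31.

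The jasmonate list had the highest median of the 24 lists by the mean of the replicates, 0.74 over 11 features (0.56 in replicate 1, below glycolysis at 0.69 and the cytoskeleton at 0.66, and 0.72 in replicate 2). Of these, 3 were at or above 1.8-fold (27.3%, against 9.47% of all features) and 1 was at or past 1.8-fold lower (against 2.26%). None passed the test. At an unadjusted p under 0.05 (limma), 5 were higher and 1 was lower, against 774 and 159 of all 5926 features tested. JAZ proteins repress jasmonate responses until the F-box receptor COI binds them, and NINJA joins them to a co-repressor. JAZ6 gave 0.58 and 0.80 in replicate 1 and 2.29 and 2.22 in replicate 2, and JAZ3 gave 1.87 and 2.5 in replicate 1 and 0.67 and 0.78 in replicate 2. These JAZ genes reached similar means, 1.47 and 1.46, through opposite replicates (limma adjusted p = 0.149 for each). JAZ1 was lower in all 4 spots, with -1.22 and -1.37 in replicate 1 and -0.79 and -1.02 in replicate 2 (mean -1.10, limma adjusted p = 0.134). The receptor genes COI1B and COI2 averaged 0.81 ± 0.15 and, in the higher of its features, 0.74 ± 0.16 (SD, n = 2), and NINJA1 averaged 0.76 ± 0.19. These 3 were steadier between replicates than the JAZ genes. JAZ7 averaged 0.86 ± 0.42, with replicate 2 the higher. The synthesis gene aoc, allene oxide cyclase, averaged -0.50.

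Among the other hormone genes, OsRR6, a type-A response regulator of cytokinin signaling, gave 2.65 and 2.35 in replicate 1 and 0.55 and 0.67 in replicate 2. CKX4, an enzyme that breaks down cytokinin, averaged 1.24 ± 0.48 (SD, n = 2, limma adjusted p = 0.0771). The gibberellin receptor gid1 averaged 0.91, with spots between -0.06 and 1.91 on one slide. Of 19 features in this list, 15 were above 0 (78.9%, against 59.5% of all features) and 3 were at or above 1.8-fold (15.8%, against 9.47%), with a median of 0.41. None passed the test. At an unadjusted p under 0.05 (limma), 3 were higher and 0 lower, against 774 and 159 of all 5926 features tested. The median was 0.44 in replicate 1 and 0.23 in replicate 2, and 8 members reached 1.8-fold in replicate 1 against 2 in replicate 2. Over all 6027 features these counts were 817 and 556.

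**Figure D2:**
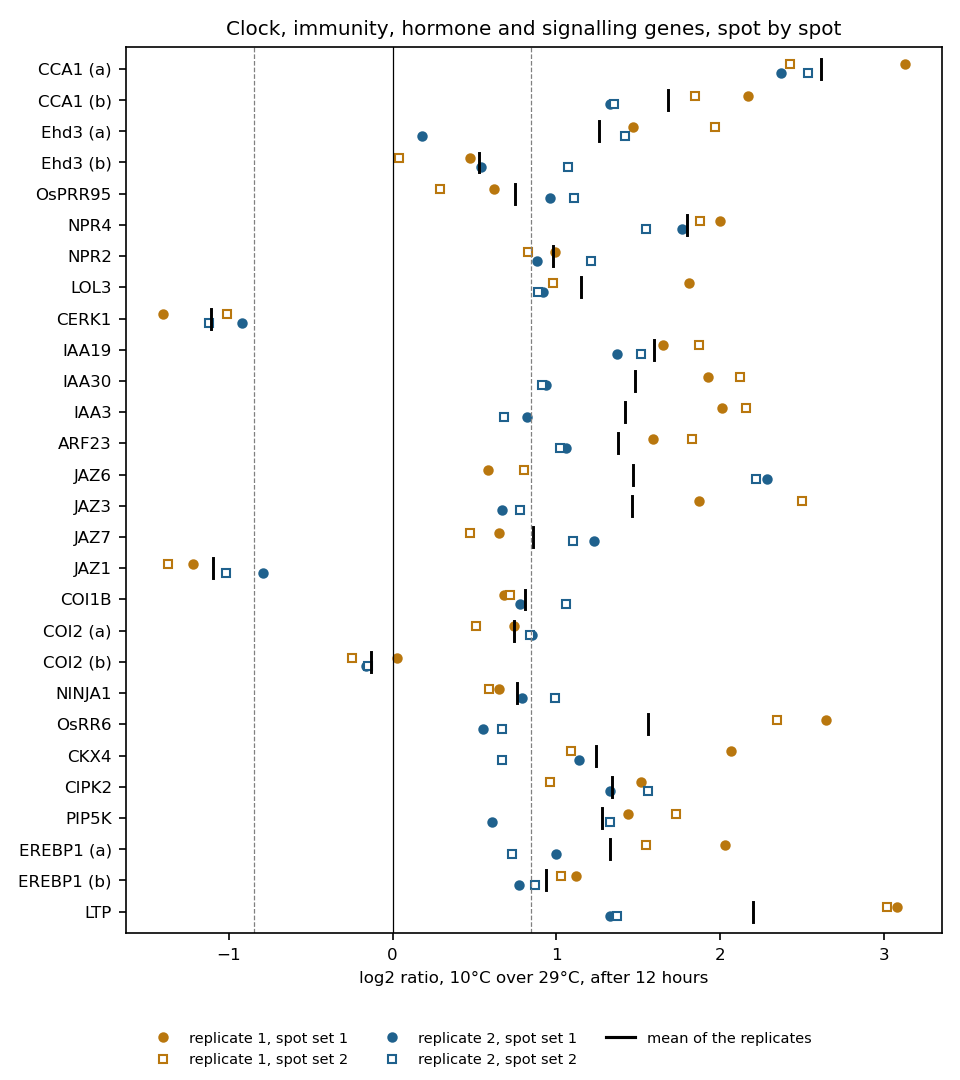
The x axis gives the log2 ratio of 10°C over 29°C after 12 hours for each spot of clock, immunity, hormone and signaling features, with both replicates and spot sets marked, the mean of the replicates as a bar and dashed lines at 1.8-fold. CCA1, NPR4 and IAA19 have all spots above 1.8-fold, whereas JAZ6, JAZ3, OsRR6 and LTP have replicates far apart.

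Calcium sensors and phospholipid kinases relay early cold signals. CIPK2, a protein kinase that is activated by calcium sensor proteins, averaged 1.34 ± 0.14 (SD, n = 2), with spots between 0.96 and 1.56 (limma adjusted p = 0.0824). CIPK18 averaged 1.18 ± 0.44, and CIPK33 averaged 1.07 with replicate 1 at 2.00 and 1.47 and replicate 2 at 0.57 and 0.25. PIP5K, which makes the signaling lipid phosphatidylinositol bisphosphate, averaged 1.28 ± 0.43 (SD, n = 2, limma adjusted p = 0.0728). Of 30 features for MAP kinases, calcium-dependent kinases and related kinases, 5 were at or above 1.8-fold (16.7%, against 9.47% of all features). In this list 0 were at or past 1.8-fold lower (against 2.26%), the median was 0.22 and none passed the test. At an unadjusted p under 0.05 (limma), 9 were higher and 0 lower, against 774 and 159 of all 5926 features tested. Of 33 features for DNA-binding transcription factors, 4 reached 1.8-fold (12.1%, near the 9.47% of all features), 18 lay above 0 (54.5%, against 59.5%) and the median was 0.13, and in 23 of them replicate 1 was the higher one. YABBY2, of a plant family known for setting leaf polarity, averaged 1.0 ± 0.20 (SD, n = 2, limma adjusted p = 0.101), and OSH6, a homeobox protein of the KNOX family, averaged 0.80. The protein phosphatases OsPP2C10, PP2A3 and OsPP2C52 averaged 1.18, 1.16 and 0.96 in a list of 10 features with a median of 0.15.

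Of the genes for cold and dehydration, LTP stood out. It encodes a lipid transfer protein, a small secreted protein that carries lipids. Its log2 ratios were 3.08 and 3.02 in replicate 1 and 1.33 and 1.37 in replicate 2, all above 1.8-fold but with a gap between replicates, and its 4.60-fold mean did not pass the test (2.20 ± 1.20, SD, n = 2, limma adjusted p = 0.0775). DI19-5, a drought-induced zinc-finger protein, averaged 1.01 ± 0.34 (SD, n = 2). The salt-induced lectin gene salT averaged -0.71 with all 4 spots below 0, and P5CS1, which makes the osmolyte proline, averaged -0.48. The dehydrin LIP9 averaged 0.45, with replicate 1 at 0.89 and 0.86 and replicate 2 at -0.01 and 0.03, and COLD1, a membrane regulator of chilling tolerance, averaged 0.24. In this list of 12 features 7 were above 0 (58.3%, against 59.5% of all features) and 2 were at or above 1.8-fold (16.7%, against 9.47%). The median of 0.13 was near the 0.11 of all features.

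Glycolysis and fermentation had a median of 0.57 over 23 features of 16 genes (0.69 in replicate 1 and 0.46 in replicate 2). Of these, 17 were above 0 (73.9%, against 59.5% of all features), 8 were at or above 1.8-fold (34.8%, against 9.47% of all features), 0 were at or past 1.8-fold lower (against 2.26%) and none passed the test. At an unadjusted p under 0.05 (limma), 9 were higher and 0 lower, against 774 and 159 of all 5926 features tested. GPI-A, glucose-6-phosphate isomerase, was the steadiest in the higher of its features. This feature gave 1.74 and 1.53 in replicate 1 and 1.45 and 1.64 in replicate 2 (3.01-fold, limma adjusted p = 0.0624). The other GPI-A feature had a mean of smaller size. The enolase gene Eno1 gave 3.0 and 2.46 in replicate 1 and 1.09 and 1.16 in replicate 2 in one feature (mean 1.93, limma adjusted p = 0.0626) and averaged 1.17 ± 0.24 (SD, n = 2) in another. GAPC, cytosolic glyceraldehyde-3-phosphate dehydrogenase, gave 2.28 and 2.30 in replicate 1 against 0.32 and 0.49 in replicate 2, and a second GAPC feature was below 0 in all 4 spots, with replicate means of -0.88 and -0.37. GAPC3 gave 2.29 and 2.03 in replicate 1 and 0.19 and 0.25 in replicate 2. PDC, pyruvate decarboxylase, the first enzyme of ethanol fermentation, averaged 1.12 ± 0.31 (SD, n = 2) in one feature and 0.10 in 2 others that carry this name. In this list 10 features reached 1.8-fold in replicate 1 and 4 in replicate 2, against 817 and 556 of all 6027 features.

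Genes that act after glycolysis showed the same kind of split. The mitochondrial list had a median of 0.52 over 16 features. Of these, 13 were above 0 (81.2%, against 59.5% of all features), 3 were at or above 1.8-fold (18.8%, against 9.47%) and none passed the test. At an unadjusted p under 0.05 (limma), 4 were higher and 0 lower, against 774 and 159 of all 5926 features tested. SCS-beta, a subunit of succinyl-CoA synthetase of the citric acid cycle, gave 2.34 and 1.86 in replicate 1 and 1.08 and 1.65 in replicate 2 (3.33-fold, limma adjusted p = 0.101), and its second feature averaged 0.79. ANT, the carrier that exchanges ADP and ATP across the inner membrane, gave 2.71 and 2.23 in replicate 1 and 0.85 and 0.62 in replicate 2 (limma adjusted p = 0.0816). SDH5, a subunit of succinate dehydrogenase, averaged 1.21 ± 0.36 (SD, n = 2). OsVDAC1, OsVDAC2 and OsVDAC5, channels of the outer membrane, averaged 0.70, 0.75 and 0.62.

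Sucrose and starch genes were mixed. SUS1, a sucrose synthase that cleaves sucrose, gave 2.99 and 2.71 in replicate 1 and 0.40 and 0.12 in replicate 2 (limma adjusted p = 0.209), and SUS3 averaged 0.87 with the same order of replicates. The sucrose-phosphate synthase gene SPS4F was lower in all 4 spots, at -1.35 and -1.19 in replicate 1 and -0.56 and -0.52 in replicate 2. The alpha-amylase gene AMY1A had replicates of opposite sign, -1.15 and -1.13 in replicate 1 against 2.80 and 2.87 in replicate 2, although the spots within each slide were nearly equal. AMY3E, another alpha-amylase, averaged 1.18 ± 0.72 (SD, n = 2). Of 17 features, 3 were at or above 1.8-fold (17.6%, against 9.47% of all features) and 1 was at or past 1.8-fold lower (against 2.26%), with a median of 0.27.

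In nitrogen metabolism, GLT2, a glutamate synthase, had the largest mean, 2.56, which rested on 1 spot at 4.27 in replicate 1, the other being missing, and on 0.93 and 0.75 in replicate 2. GDH2, glutamate dehydrogenase, gave 0.87 and 0.73 in replicate 1 and 1.85 and 1.95 in replicate 2 (2.55-fold, limma adjusted p = 0.0746). LYSA, the last enzyme of lysine synthesis, was lower in all 4 spots, between -0.75 and -1.21. METK3, an S-adenosylmethionine synthetase, averaged -1.09 over 3 spots. Of 19 features 2 were at or above 1.8-fold (10.5%, near the 9.47% of all features) and 2 were at or past 1.8-fold lower (against 2.26%), with a median of 0.27.

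**Figure D3:**
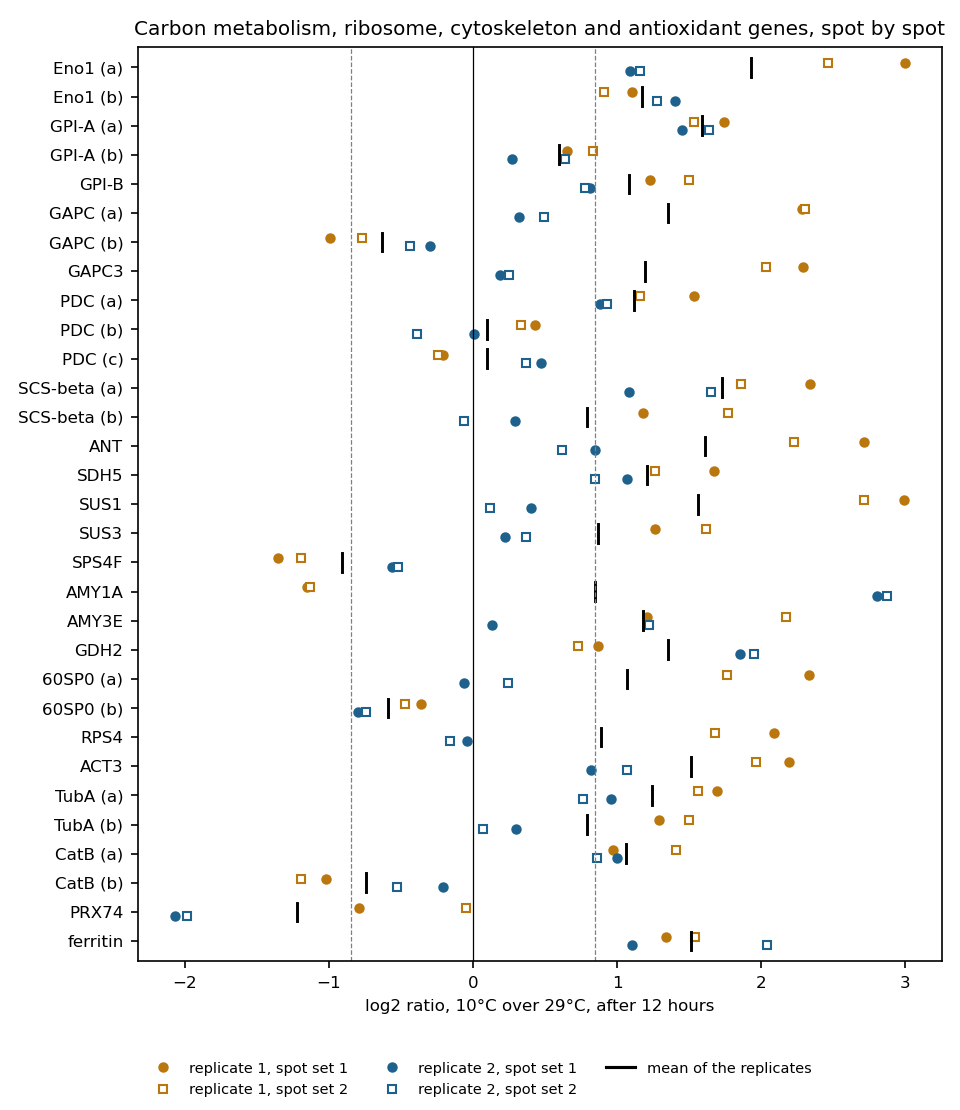
The x axis gives the log2 ratio of 10°C over 29°C after 12 hours for each spot of features of carbon metabolism, nitrogen, the ribosome, the cytoskeleton and antioxidants, with replicates and spot sets marked, the mean of the replicates as a bar and dashed lines at 1.8-fold. GPI-A (a) has all spots together near its mean of 1.59, GAPC3, SUS1 and RPS4 have replicate 1 above and replicate 2 near 0, and AMY1A has replicates of opposite sign.

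The ribosome, the cytoskeleton and the proteasome differed by replicate. In the list of 17 ribosomal and translation features, replicate 1 was the higher one in 15, the medians were 0.46 in replicate 1 and 0.04 in replicate 2, and 6 features reached 1.8-fold in replicate 1 against 0 in replicate 2. The ribosomal stalk protein gene 60SP0 gave 2.33 and 1.76 in replicate 1 and -0.06 and 0.24 in replicate 2, and RPS4 gave 2.09 and 1.68 against -0.04 and -0.16. In the 27 features of actin, tubulin and their partners the medians were 0.66 in replicate 1 and 0.13 in replicate 2. The actin gene ACT3 gave 2.19 and 1.96 in replicate 1 and 0.82 and 1.07 in replicate 2, and the alpha-tubulin TubA averaged 1.24 ± 0.54 (SD, n = 2, limma adjusted p = 0.0746). In the 21 features of ubiquitin and the proteasome, UBQ3, a polyubiquitin gene, averaged 1.02 in one feature and -0.17 in the other, and the proteasome subunit genes PBF1 and OsRPN7 averaged 0.88 and 0.87. Over all features replicate 1 was the higher one in 2999 of 6027, with medians of 0.07 in replicate 1 and 0.11 in replicate 2. Of these 6027 features, 817 reached 1.8-fold in replicate 1 and 556 in replicate 2. None of the features of these 3 lists passed the test (limma, unadjusted p under 0.05 for 3 higher and 1 lower feature of the ribosome, 8 higher and 0 lower of the cytoskeleton, and 5 higher and 1 lower of the proteasome). Over all 5926 features tested, 774 higher and 159 lower had such a p.

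Antioxidant genes had no common direction. Catalase breaks down hydrogen peroxide, and the 2 features of CatB were of opposite sign, one with 0.97, 1.41, 1.0 and 0.86 and the other with -1.02, -1.19, -0.21 and -0.53 in replicate 1 and replicate 2, spot sets in order. The peroxidase PRX74 gave -0.79 and -0.05 in replicate 1 and -2.07 and -1.98 in replicate 2 (2.33-fold lower, limma adjusted p = 0.136). GLYI-11, a glyoxalase that removes methylglyoxal, averaged 1.12, and MT2C, a metallothionein, averaged 1.10 in one feature and 0.16 in the other. The glutathione reductase GR averaged 0.69 and the ascorbate peroxidase APX7 0.64. Of 26 features, 15 were above 0 (57.7%, against 59.5% of all features) and 3 were at or above 1.8-fold (11.5%, near the 9.47% of all features). In this list 1 was at or past 1.8-fold lower (against 2.26% of all features), and the median was 0.15 (-0.14 in replicate 1 and 0.41 in replicate 2).

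Genes of protein folding had a median of 0.29 over 19 features. The protein disulfide isomerases OsPDIL2-1 and OsPDIL1-1, which fold proteins in the endoplasmic reticulum, averaged 1.28 ± 0.62 and 1.0 ± 0.00 (SD, n = 2). The small heat shock protein hsp17.9 gave 0.02 and 0.05 in replicate 1 and 0.93 and 1.82 in replicate 2, and the J-protein DJC79 had -0.54 and -2.54 in 1 spot per slide of one feature but 0.61 in its other feature. Photosynthesis and chlorophyll synthesis, which mark green shoot tissue, had a median of -0.02 over 16 features, 8 of them above 0 (50.0%, against 59.5% of all features). The chlorophyll synthesis genes CHLG and PORB averaged -0.66 and -0.63, and atpB, the chloroplast ATP synthase subunit, averaged 1.36 in one feature and 0.60 in the other.

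Cell wall genes included 7 of 40 features at or above 1.8-fold (17.5%, against 9.47% of all features) and 2 at or past 1.8-fold lower (against 2.26%), with a median of 0.12. The beta-glucosidase BGLU1 gave 2.28 and 1.65 in replicate 1 and 0.58 and 0.60 in replicate 2. The cellulose synthase genes CESA6 and CESA5 averaged 1.10 and 0.99, and CESA5 was near 0 in replicate 2. PAL, phenylalanine ammonia lyase, the entry enzyme of phenylpropanoid synthesis, averaged 1.04 ± 0.28 (SD, n = 2). GLU2 had 1 feature at -0.95 and another at 0.93, each with one sign in all 4 spots. Among channels and carriers, the sugar carrier SWEET2B, the aquaporin PIP1-3 and the silicon channel Lsi6 averaged 1.16, 0.86 and 1.05, and the aquaporin PIP2-2 averaged 1.14 and 0.75 in its features. This list of 36 features had a median of 0.09, with 4 at or above 1.8-fold (11.1%, near the 9.47% of all features).

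The DNA replication and cell cycle list had a median of 0.16 over 20 features, with the histone H2B.5 at 1.05 and the replicative helicase subunit MCM3 at 0.87, and the single-stranded DNA binding protein OsRPA70a had replicate means of 1.51 and -0.09. The lipid list of 8 features had PLD1, a phospholipase D, at -1.03 and MFP, the multifunctional protein of fatty acid oxidation, at 1.02, each with one sign in all 4 spots. Seed storage proteins, which belong to the endosperm and not to shoots, had a median of 0.00 over 6 features, and these lay between -0.34 and 0.13.

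**Figure D4:**
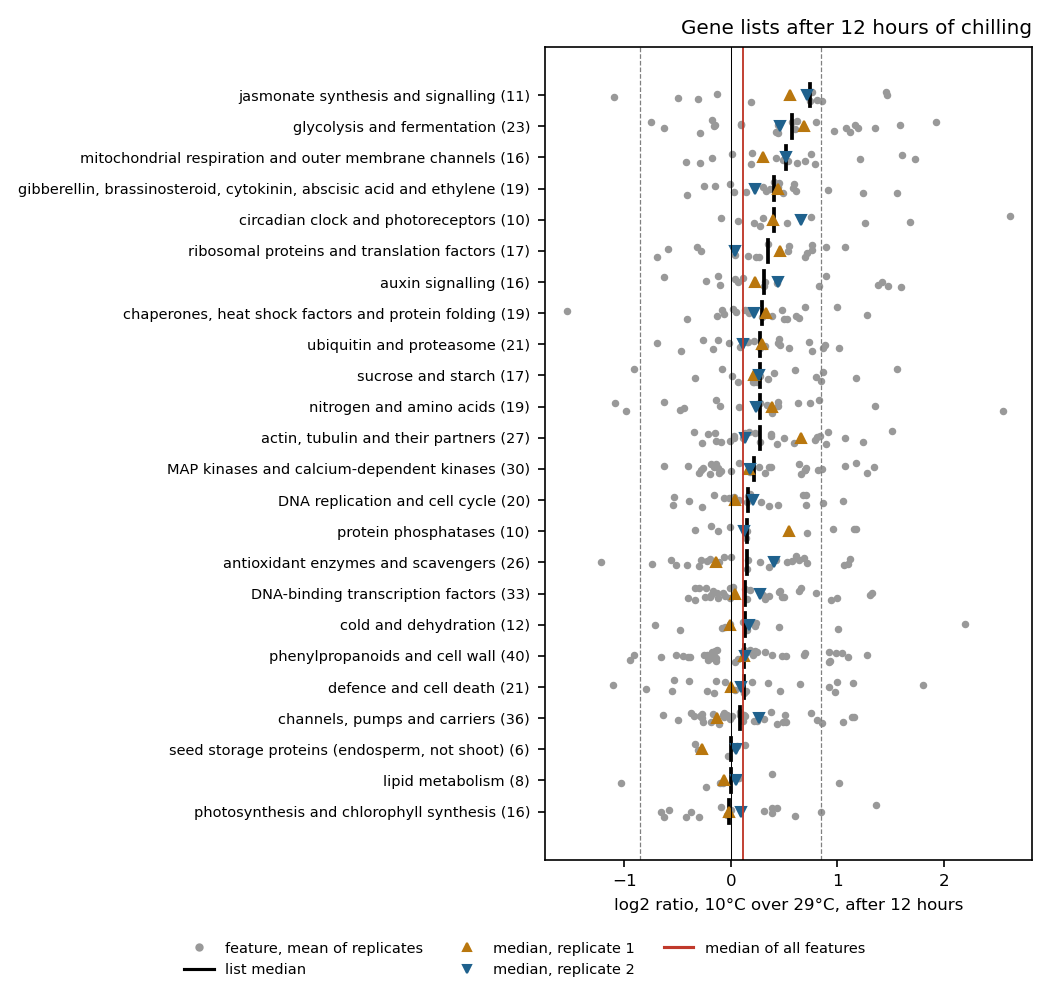
The x axis gives the log2 ratio of 10°C over 29°C after 12 hours for every feature of 24 gene lists, with the number of features in parentheses, the list median as a black bar, each replicate's median as a triangle and the median of all features as a red line. Jasmonate, glycolysis and mitochondria have the highest medians (0.74, 0.57 and 0.52), and the replicate medians of antioxidants (-0.14 in replicate 1, 0.41 in replicate 2) and of actin and tubulin (0.66 and 0.13) lie on either side of the list median.

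The genes that the study followed by quantitative PCR were also on the array. The bZIP factor ROS-bZIP1 gave -0.34 and -0.34 in replicate 1 and 0.73 and 0.68 in replicate 2, and OsMyb4 gave -0.41 and -0.55 against 0.82 and 0.75, so that both had replicates of opposite sign and means near 0. The bHLH protein averaged 1.31 ± 0.99 (SD, n = 2) with replicate 1 the higher. EREBP1, an ethylene response factor, averaged 1.33 ± 0.65 and 0.94 ± 0.18 in its 2 features, with all 8 spots between 0.73 and 2.03. Ferritin, the iron storage protein, averaged 1.51 ± 0.09, ATP sulfurylase, the first enzyme of sulfate assimilation, 1.36 ± 0.52, the HMG protein 1.01 ± 0.18 and the ATP synthase-like protein 0.87 ± 0.20 (SD, n = 2 each). None of these passed the test (limma adjusted p between 0.0897 and 0.9). The study listed genes of this array by their increase on these same arrays, so their values are no independent evidence of a direction. Of the 18 features in its rapid group, all were above 0 with a median of 1.0, and of the 80 in its slow group, 78 were above 0 with a median of 1.03.

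The other calls were features with a locus identifier but no name. LOC4324604 gave 2.55 and 2.34 in replicate 1 and 2.37 and 2.55 in replicate 2, a 5.47-fold rise (limma adjusted p = 0.0051). LOC4328121 rose 3.10-fold with spots between 1.29 and 2.02, and LOC4331617 rose 3.69-fold in one feature, while its other feature, which the study annotated as a putative anion transporter, averaged 1.11 (limma adjusted p = 0.229). LOC4328577, LOC4345340, LOC4331518, LOC4351549 and LOC4343913 rose 3.68-, 3.02-, 2.97-, 2.87- and 2.77-fold. With the median of each column set to 0, these 5 and LOC4331617 were no longer called (limma adjusted p between 0.0575 and 0.0677), while LOC4324604 and LOC4328121 were (0.00585 and 0.0455). In 4 further features the call rested on unequal spots. LOC4325257 gave 8.83 and 0.62 in replicate 1 and 3.44 in the one spot of replicate 2, LOC4338144 gave 5.07 against 0.64 within replicate 2, LOC4336941 gave 4.58 against 0.41 within replicate 1, and LOC4326337 gave 3.36 against 0.56 within replicate 2. Of these, LOC4338144 and LOC4336941 were not called with the medians set to 0 (limma adjusted p = 0.0513 and 0.0575). LOC4327740 fell 3.36-fold, with -2.21 and -1.82 in replicate 1 and -1.38 and -1.58 in replicate 2 (limma adjusted p = 0.0419). Among the 5 features without a gene, 3 rose and 2 fell, and each of these 2 had 1 spot per slide. Whether these 5 are rice cDNAs or control or empty spots was not examined.

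Further down were features that did not pass the test but had one sign in all 4 spots. LOC4333335, LOC4338464, LOC4326339 and LOC4339623 averaged 2.41, 2.18, 2.16 and 2.03, with replicate means far apart in the first 3. On the lower side LOC4336973, LOC4349929, LOC4343487, LOC4340004, S1FA, LOC4332441, LOC4339005 and LOC4333703 averaged -1.38, -1.36, -1.27, -1.16, -1.17, -1.15, -1.15 and -1.14. S1FA, a small DNA-binding protein, gave -1.31, -1.07, -0.99 and -1.29, and in LOC4340004 both replicate means were equal within the rounding (SD 0.00). Of these lower features, LOC4332441 had the widest gap between replicates, with means of -0.77 and -1.53.

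The 12-hour ratios were then set against those of the other times, each of which had its own control shoots. Of the 571 features at or above 1.8-fold at 12 hours, 144 were also at or above it at 0.5 hours (25.2%, and 20.8% of the 691 there), 234 at 2 hours (41.0%, and 23% of 1019), 154 at 6 hours (27%, and 40.5% of 380) and 294 at 24 hours (51.5%, and 38.5% of 764). The second share of each pair stands against the 9.47% of all features at or above 1.8-fold at 12 hours. The first share grows with the number of features past the rule at the other time. The overlap with 2 hours rests on the turned sign of replicate 2 there, and with the sign as deposited 33 features reached 1.8-fold at 2 hours, 1 of them among the 571 (0.175%, and 3.03% of the 33). At 6 hours, the source name of the chilled sample in one column of replicate 2 gives 0.5 hours, against its title and treatment, and without that column the overlap was 141 (24.7%, and 41.6% of 339). For 154 of the 571, or 189 with the sign as deposited, 12 hours was the one time at or above 1.8-fold. Of the 136 lower features, 40 were also lower at 24 hours (29.4%, and 37.7% of the 106 there, against 2.26% of all features), and 55 were lower at 12 hours alone (58 with the sign as deposited). Tested directly, 1 of 5926 features differed between 12 and 24 hours (0.0169%), 0 between 12 and 6 hours (0.0%) and 1 between 12 and 2 hours (0.0169%) at a limma adjusted p under 0.05. At an unadjusted p under 0.05 there were 48 higher and 128 lower at 12 hours than at 24 hours, 62 and 30 against 6 hours, and 122 and 217 against 2 hours, where the deposited sign gave 265 and 51 and no call. Both called features had no gene and missing spots.

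The time courses of the named genes had different shapes, and their 2-hour values carry the turned sign in replicate 2. The first CCA1 feature had replicate values of -0.86 and 1.70 at 0.5 hours, 0.67 and 0.84 at 2 hours, 1.02 and 1.60 at 6 hours, 2.78 and 2.46 at 12 hours and -0.64 and 0.59 at 24 hours. The second had 2.01 and 1.34 at 12 hours and 0.20 and 0.22 at 24 hours. The differences between 12 and 24 hours were 2.64 (standard error 0.67) and 1.46 (standard error 0.43), with limma unadjusted p = 0.00183 and 0.00479 and adjusted p = 0.999 for both. NPR4 averaged 1.8 at 12 hours and 0.64 at 24 hours, and CERK1 -1.11 at 12 hours and -0.09 at 24 hours, also short of the adjusted threshold. In CCA1 and NPR4 the 12-hour mean was the highest of the 5 times. These genes were named for their 12-hour values, and that choice favors an extreme at 12 hours and a difference from the other times. The order of the times and the unadjusted p values are therefore descriptions and no evidence of a peak.

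IAA19 and LOC4324604 kept high means at 24 hours. IAA19 averaged 1.60 at 12 hours and 1.29 at 24 hours, after -0.35, -0.25 and 0.79 at 0.5, 2 and 6 hours. LOC4324604 averaged 2.45 at 12 hours and 2.46 at 24 hours, after -0.15, -0.37 and 1.0 at 0.5, 2 and 6 hours, and its difference of 2.82 from 2 hours had a limma adjusted p = 0.0855, against 2.59 and an adjusted p = 0.744 with the sign as deposited. PIP5K averaged 1.28 at 12 hours against 2.29 at 24 hours, and NINJA1 averaged 0.76 at 12 hours against 2.20 at 6 hours (difference -1.45, limma unadjusted p = 0.00358, adjusted p = 1.0). LOC4324711, an SF21-like protein, averaged 1.53 at 12 hours and -0.69 at 2 hours (difference 2.22, limma adjusted p = 0.449), and with the sign as deposited the difference was 1.13 (adjusted p = 0.744). None of these differences passed the adjusted threshold.

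**Figure D5:**
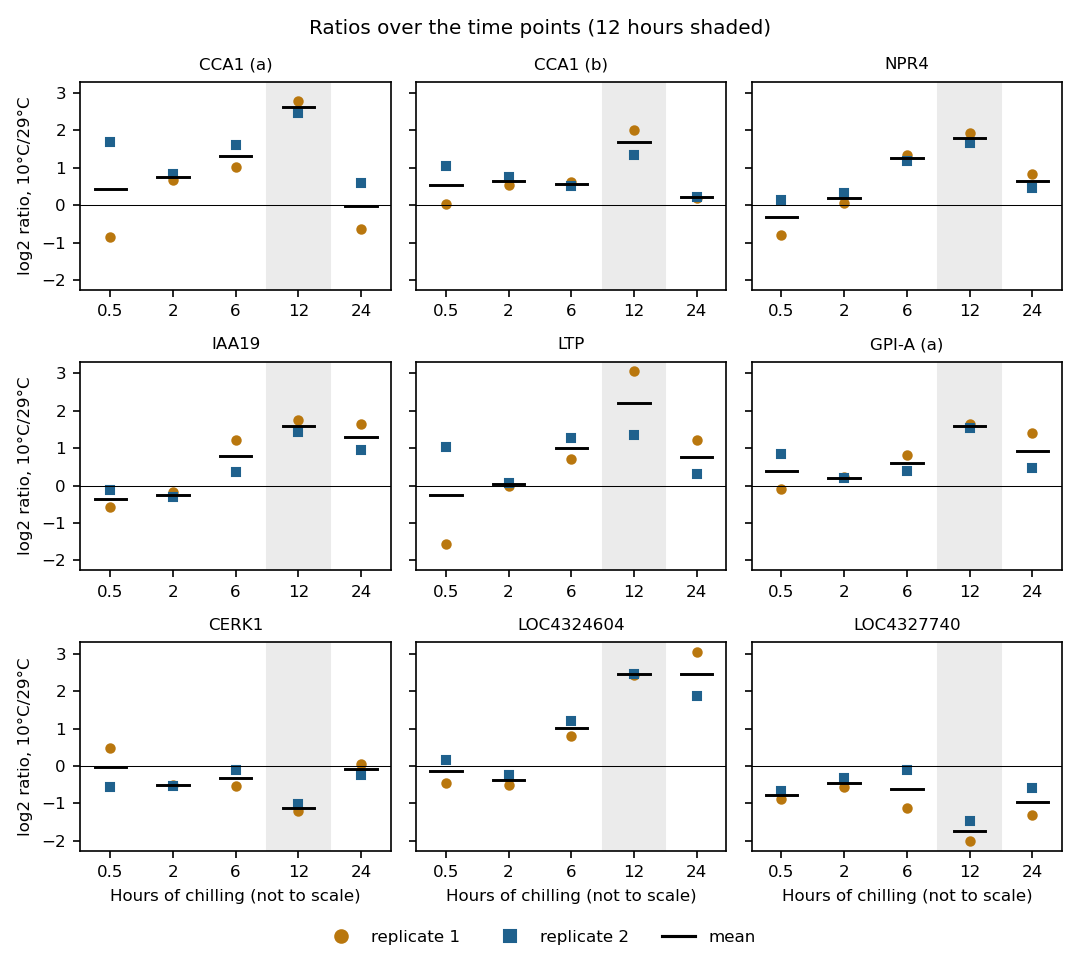
The y axis gives the log2 ratio of 10°C over 29°C and the x axis the hours of chilling for 9 features, with both replicates as points, their mean as a bar and 12 hours shaded. CCA1, NPR4, LTP and the higher feature of GPI-A have their highest mean at 12 hours, and CERK1 and LOC4327740 have their lowest mean there. IAA19 (1.60 at 12 hours and 1.29 at 24 hours) and LOC4324604 (2.45 and 2.46) are high at both times. The features were chosen by their 12-hour values, which favors an extreme at that time.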

How the data were processed

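Per the labels and the methods, each slide was hybridized with chilled RNA (Cy3) and its own control RNA (Cy5). The deposited values are log2 ratios of background-subtracted medians, chilled over control, which the authors normalized with Acuity to a mean ratio of 1 over all features. In the 12-hour columns as deposited the mean ratio is 1.19 to 1.43, and no further normalization was applied. Each column holds 1 spot set.

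Log2 ratios of both spots were averaged per slide. limma 3.58.1 in R 4.3.3 was run on 5926 features measured in each of the 10 biological samples, fitting one mean to each time (residual degrees of freedom 5, prior 7.81). Summaries used Python with pandas. Both columns of replicate 2 at 2 hours, which correlate with replicate 1 at r = -0.43 as deposited, had their sign turned. Whether dyes or ratio were inverted there is not known, and they enter the 12-hour test through the shared spread.

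Features were named through the platform's gene identifiers and RefSeq. Of 6080, 4172 have 1 gene, 97 have several, 1811 have none and 720 have a gene name. Named are all calls with a gene, the 10 highest and 10 lowest features past 1.8-fold with one sign in all 4 spots, up to 4 members of each of 24 lists by absolute mean, and the genes the study measured by quantitative PCR. Further list members and time courses were chosen after their values were seen. The members and lists were chosen with earlier results of these data known, and lists were drawn up as gene identifiers after the array's annotation was seen. The labels number the replicates 1 and 2, the methods call them independent, and the number of seedlings per sample was not used here. Alternatives were another centring, single spot sets, other estimates of the spread, other fold rules and left-out replicates. No sequences and no coordinates are given.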

Additional observations from a re-analysis of the deposited data

Results flagged for a closer look

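Among the comparisons of 12 hours with other times, 2 features without a gene in the annotation differed by the test of the difference itself. The first had -4.11 and -5.28 (log2) in replicates 1 and 2 at 12 hours against 0.49 and 0.69 at 24 hours, a difference of -5.28 (limma adjusted p = 0.0125). The second had -2.03 and -3.77 at 12 hours against 2.73 and 1.24 at 2 hours, a difference of -4.89 (limma adjusted p = 0.0181), and its 2-hour value in replicate 2 carries the turned sign. Each replicate value of these features at 12 hours is that of 1 spot, the other being missing. The part of the missing spots in these differences was not tested. Both features are also among the 3 called lower at 12 hours. Whether they are rice cDNAs or control or empty spots was not examined.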

How the results depend on the processing

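The number of 12-hour calls moved with most settings tried. Against 19 higher and 3 lower, there were 5 and 3 with the median of each column set to 0, 6 and 1 with the first spot set alone, 1 and 0 with the second, 0 and 0 with the sign of replicate 2 at 2 hours as deposited, 3 and 2 without the 2-hour arrays, 37 and 3 with robust estimation, 32 and 1 over features complete in 20 columns, 140 and 59 with spot sets kept apart, 0 and 0 with the 12-hour arrays alone, and 132 and 19 at an adjusted p under 0.1. Leaving out 1 replicate gave 3 to 57 higher and 2 to 5 lower, with 9 and 5 without replicate 1 and 57 and 4 without replicate 2 of 12 hours, 3 and 2 without either of 2 hours, 10 and 4 without either of 6 hours and 4 and 2 without either of 24 hours. Leaving out the replicates of other times, and values beyond 10 in size (19 and 3), was chosen after the data were seen.

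CCA1 kept its calls in 6 and 5 of 19 alternatives, NPR4 in 8 and IAA19 in 4, with limma adjusted p of 0.00358 to 0.447, 0.00358 to 0.743, 0.000568 to 0.456 and 0.0318 to 0.672. The 19 are not all distinct. Leaving out either replicate of another time gives the same 12-hour test, as does leaving out all 2-hour arrays. The counts for NPR4 and the first CCA1 feature include both of the equal 6-hour fits. The lowest values of CCA1 and NPR4 came from spot sets kept apart. No called feature changed sign, but most of these settings leave the 12-hour mean as it is, so this says little about stability.

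The 571 higher features became 1117 at 1.5-fold and 217 at 1.8-fold in each replicate, and the 136 lower ones 309 and 72. With 1 replicate of 12 hours the counts were 556 to 817 higher and 147 to 273 lower. Against 24 hours, 1 feature became 0 with the sign as deposited or without the 2-hour arrays and 0 to 3 with 1 replicate left out. Against 6 hours, 0 became 1 to 5 with 1 replicate left out and stayed 0 under the other settings. Against 2 hours, 1 became 2 with the medians set to 0, 0 with the sign as deposited, and 2 to 28 with 1 replicate left out, the 28 without replicate 1 of 2 hours. List medians kept their sign in 21 to 24 of 24 lists under each of the 6 alternatives.

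The replicate numbers are shared between times, but the differences between replicates 1 and 2 correlated at -0.26 to 0.28 over the 10 pairs of time points, between 0.21 and 0.28 among 6, 12 and 24 hours and -0.11 and 0.06 between 12 hours and 0.5 and 2 hours. Since not every pair was above 0.1, the numbers were not taken to pair the samples. With the replicate number as a block, 3 features were called higher and 4 lower at 12 hours, and CCA1 (adjusted p = 0.0861 and 0.0889), NPR4 (0.0781) and IAA19 (0.0874) were not among them.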

Other observations

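Features of one gene often differed. At 12 hours 293 genes had more than 1 feature with a value, and in 168 of them all features had one sign. Over the 275 genes with exactly 2 features, the 2 means correlated at r = 0.18 and differed by a median of 0.47 (log2). Of 73 such genes with a feature at or above 1.8-fold, 8 had all features there and 22 had another feature below 0. CatB, GLU2, GAPC and 60SP0 are examples with one sign within each feature and opposite signs between features, apart from 1 spot of 60SP0. Cross-hybridization, clone identity and gene assignment were not tested.

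Replicates of opposite sign were seen in 1839 of 6027 features, in 25 of the 571 at or above 1.8-fold and in 11 of the 136 at or past 1.8-fold lower.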
